A study of Mus musculus with 6 samples.

Results

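Intermediate methylation beside unmethylated DNA was examined in 927 tiles of 1 kb in splenic naive B cells of Tet2 knockout (KO) and wild-type (WT) mice. The tiles, called border tiles here, were chosen by their methylation level. Cytosines measured in all 6 libraries were grouped into fixed tiles of 1 kb, and a tile was kept if it held 3 to 29 cytosines, had a level of 30% to under 70% averaged over all 6 libraries, and lay directly next to a tile with a level under 10%. They made up 0.851% of the 108943 tiles with at least 3 cytosines and 10.3% of the 8963 intermediate tiles that meet the same limits on level and cytosine number. The other 8036 intermediate tiles had no such neighbour and are called intermediate tiles away from unmethylated DNA. The KO group was 3 libraries of naive B cells from spleens of mice with the genotype TET2 Knock-Out, and the WT group was 3 libraries of the same cells with the genotype TET2 Wild-Type. Both groups shared the strain C57BL/6 and had no treatment. The labels name neither the allele nor the age or sex of the mice, and do not say that the libraries came from separate mice, so the p-values below describe library-to-library spread, part of which may be technical.

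Methylation of CpG dinucleotides is typically low across CpG-rich promoters and high in the rest of the genome. Between these states lie flanks, often called shores, where methylation climbs over a short distance and where differences between cell types and tumours have often been found. TET2 is a dioxygenase that oxidises 5-methylcytosine to 5-hydroxymethylcytosine and further forms, a step in the removal of methylation, and is frequently mutated in blood cancers. The assay, enhanced reduced representation bisulfite sequencing (ERRBS), reads CpGs near restriction sites and does not separate 5-methylcytosine from 5-hydroxymethylcytosine. A level is the percent of reads with C among reads with C or T, and every difference below is in percentage points, KO minus WT.

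Each library held 1551481 to 1626375 cytosines at a median coverage of 92 to 110 reads and a total of 168455105 to 207065050 reads over cytosines. The 6 libraries had 1457048 of these cytosines in common. Read numbers of libraries and tiles are summed over cytosines, so a read that covers several cytosines is counted at each of them. Within Tet2 (chr3:133463677-133545136), 6 cytosines had 28 to 71 reads in every WT library and fewer than the minimum of 10 reads in every KO library, and no cytosine showed the opposite. Of 7 listed B cell marker genes, 5 had a measured gene end, and the ends of Pax5 and Cd79b were under 10%, at 0.362% and 1.47% over all libraries. That of Cd4, a T cell gene with a CpG-dense end, was also low at 0.533%, so these few ends do not identify the cell type on their own. Of 6 T cell genes 2 had a measured end and of 3 erythroid genes 1, and the listed myeloid and NK cell markers had none with 3 cytosines in all libraries. The library WT 1 stood below the other WT libraries in the means of border tiles and of intermediate tiles away, and values without it are given where they matter.

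RefSeq promoter windows, from 250 bases before to 50 bases after a listed start (GRCm38.p6), overlapped 109 border tiles in 127 windows of 116 genes. The 4 windows below had at least 5 measured cytosines where window and border tile overlap and, among such windows, the border tiles of smallest p. They show promoter DNA at border tiles, where the level is intermediate over the whole tile but not always in the window. The Flicr and Stpg1 windows themselves stood above 70% in both genotypes. Capitals mark the CpGs measured in all 6 libraries, and the other CpGs of the window are in lower case. The windows are Flicr (chrX:7573350-7573649, plus strand), the gene of a noncoding RNA next to Foxp3, Emid1 (chr11:5150025-5150324, minus strand), which encodes an extracellular EMI domain protein, Gpr50 (chrX:71663417-71663716, plus strand), which encodes a receptor related to the melatonin receptors, and Stpg1 (chr4:135495737-135496036, plus strand).
Flicr: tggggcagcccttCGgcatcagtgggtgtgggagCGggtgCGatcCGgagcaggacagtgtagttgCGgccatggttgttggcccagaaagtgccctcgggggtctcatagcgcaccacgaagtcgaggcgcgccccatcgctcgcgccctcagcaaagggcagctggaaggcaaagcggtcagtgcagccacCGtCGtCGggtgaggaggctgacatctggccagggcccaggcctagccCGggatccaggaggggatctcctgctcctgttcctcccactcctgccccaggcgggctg
Emid1: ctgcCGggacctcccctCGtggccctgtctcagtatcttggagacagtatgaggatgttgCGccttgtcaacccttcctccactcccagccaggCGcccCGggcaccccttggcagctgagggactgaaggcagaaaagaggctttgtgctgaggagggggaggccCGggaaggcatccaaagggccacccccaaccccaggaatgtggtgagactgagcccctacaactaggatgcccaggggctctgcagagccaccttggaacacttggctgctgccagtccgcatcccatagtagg
Gpr50: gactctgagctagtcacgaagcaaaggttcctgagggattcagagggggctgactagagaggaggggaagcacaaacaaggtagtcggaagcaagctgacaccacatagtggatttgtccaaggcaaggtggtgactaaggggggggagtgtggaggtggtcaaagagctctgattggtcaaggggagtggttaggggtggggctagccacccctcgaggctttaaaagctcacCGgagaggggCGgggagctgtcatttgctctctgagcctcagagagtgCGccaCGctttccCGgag
Stpg1: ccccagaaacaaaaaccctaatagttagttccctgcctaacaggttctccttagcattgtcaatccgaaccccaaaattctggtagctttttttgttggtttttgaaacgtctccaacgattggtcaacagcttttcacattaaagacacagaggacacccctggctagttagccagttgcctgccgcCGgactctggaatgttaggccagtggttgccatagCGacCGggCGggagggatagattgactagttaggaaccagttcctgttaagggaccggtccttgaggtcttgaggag

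The Flicr window held 20 CpGs, of which 9 were measured, with 11 cytosines over both strands. Its level was 70.2%, 72.5% and 74.3% in KO 1, KO 2 and KO 3, against 80.1%, 80.6% and 81.7% in WT 1, WT 2 and WT 3. The KO libraries all lay below the WT libraries there, by -8.47 points in the mean, and single cytosines ranged between 27.9% and 100% over all libraries. The Emid1 window, with 6 of 7 CpGs measured, stood at 70.9% ± 9.18 in KO and 61.7% ± 2.03 in WT (SD, n = 3 each). The Gpr50 window had 5 of its 8 CpGs measured, near its downstream edge, and stood at 47.5% ± 2.67 in KO and 51.5% ± 1.17 in WT. The Stpg1 window, with 4 of 9 CpGs measured, stood at 83.7% ± 11.7 in KO and 86.1% ± 5.22 in WT. The border tiles of these 4 windows had adjusted p-values between 0.296 and 0.815 in the quasi-binomial fit over all tiles, so none passed the test. Of the 22 windows with at least 5 cytosines inside the border tile, 12 were higher in KO, with a median difference of 0.541 points and a range of -8.47 to 9.28 points.

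Over the 927 border tiles, the mean level was slightly higher in KO. It was 50.6%, 50.1% and 49.6% in KO 1, KO 2 and KO 3, against 47.3%, 48.7% and 49.2% in WT 1, WT 2 and WT 3. The 3 KO libraries all lay above the 3 WT libraries. The means were 50.1% ± 0.489 in KO and 48.4% ± 0.969 in WT (SD over libraries, n = 3 each), a gap of 1.68 points, and without WT 1 it was 1.13 points. By pooled reads, 595 of the border tiles (64.2%) were higher in KO, with a median difference of 1.53 points, quartiles of -1.23 and 4.42 and a range of -17.8 to 27.7. Over all 108802 tiles tested, 59.8% were higher and the median difference was 0.176 points. The intermediate tiles away had a mean of 54.6% ± 0.473 in KO and 52.2% ± 1.11 in WT. That gap was 2.41 points, and 1.77 without WT 1, with a median difference by pooled reads of 1.502. A typical border tile held 5 cytosines and 585 reads per library, against 5 cytosines and 388 reads away, with reads summed over cytosines. Its level had a median SD between libraries of 4.29 points in KO and 3.88 in WT, which is larger than the median difference. Border tiles took 0.402% to 0.419% of the reads in tiles in KO and 0.404% to 0.437% in WT, while intermediate tiles away took 2.67% to 2.78% in KO and 2.08% to 2.56% in WT, and the part of this read share in the result was not tested.

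**Figure D1:**
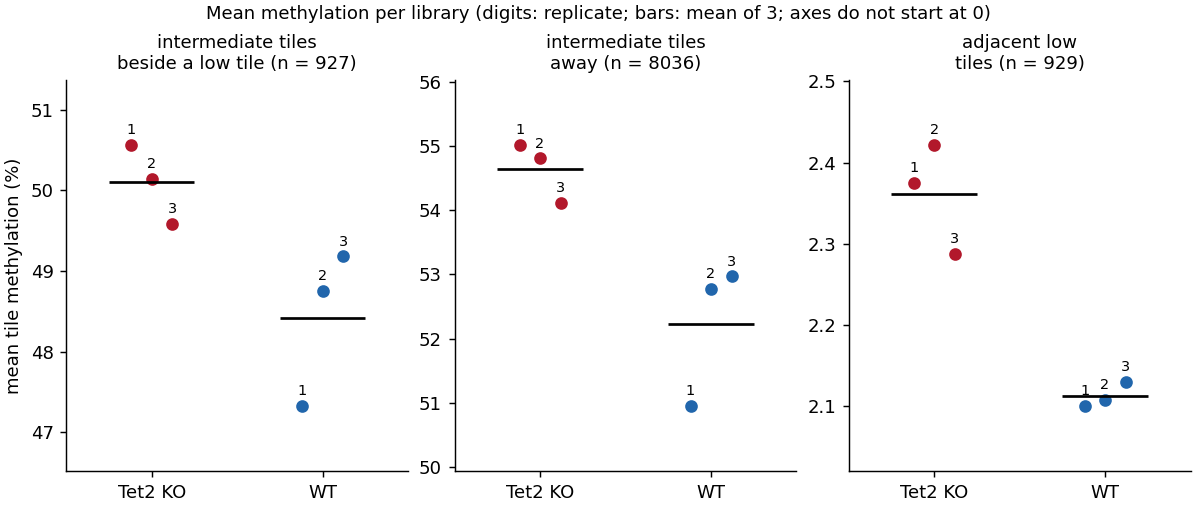
Mean methylation level (%) of border tiles (left), intermediate tiles away (middle) and adjacent low tiles (right) in each Tet2 KO and WT library, with replicate numbers beside the points and bars at the mean of 3 libraries. In all 3 panels the KO libraries lie above the WT libraries, and WT 1 is the lowest library in the left and middle panels. The vertical axes differ and do not start at 0.

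The border tiles differed among themselves in this mean difference. Those at 30 to 40% (266 tiles) were higher in KO by 1.22 points, those at 40 to 50% (222) by 2.14, those at 50 to 60% (211) by 1.38 and those at 60 to 70% (228) by 2.04. Intermediate tiles away differed by 2.91, 2.48, 2.57 and 2.03 points over the same 4 ranges, and by 2.11, 1.87, 1.86 and 1.49 without WT 1. At 30 to 40%, where the 2 sets lay farthest apart, the border tiles stood at 35.2% ± 0.283 in KO and 34.0% ± 1.13 in WT, and without WT 1 that difference was 0.567 points. At 50 to 60% the libraries of the genotypes overlapped, and without WT 1 the difference of the border tiles was 0.902 points. At 60 to 70%, the difference of the border tiles was close to that away. The number of measured cytosines in the low neighbour also split the border tiles. The 198 tiles beside a low tile of 3 to 9 cytosines stood at 53.4% ± 0.268 in KO and 50.2% ± 1.89 in WT, a gap of 3.17 points, which was 2.11 without WT 1. Beside low tiles of 10 to 29 cytosines (296 tiles) the difference was 0.936 points (0.563 without WT 1), and beside those of 30 or more (433 tiles) it was 1.51. In the last of these classes the libraries of the genotypes overlapped, and differences between classes were not tested.

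Methylation climbed steeply on the intermediate side of the border. This was measured in the 913 border tiles with 1 low neighbour, counting each cytosine by its distance from the line between the 2 tiles, and the climb itself follows in part from how the tiles were chosen. In the first 100 bases of the border tile, cytosines averaged 23.8% ± 0.437 in KO and 22.7% ± 0.859 in WT. From 200 to 300 bases they averaged 46.7% ± 0.532 in KO and 45.3% ± 0.936 in WT, and from 900 to 1000 bases 65.2% ± 0.358 in KO and 63.6% ± 0.293 in WT. In the last 100 bases of the low tile, by contrast, they averaged 5.52% ± 0.149 in KO and 5.17% ± 0.0338 in WT, and deeper inside it no bin of 100 bases exceeded 2.72% in KO or 2.56% in WT. The climb was seen within single tiles too. Of 323 border tiles measured on both sides of their midpoint, 270 (83.6%) had the higher level on the far side, with median levels of 31.2% on the near side and 74.0% on the far side over all libraries.

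The KO mean was above the WT mean in every bin of the profile, with overlapping libraries in several bins. Within 500 bases of the border, 4029 cytosines averaged 41.6%, 41.2% and 40.4% in KO 1, KO 2 and KO 3, against 38.9%, 40.3% and 40.5% in WT 1, WT 2 and WT 3. KO 3 lay below WT 3, so the groups overlapped on the near side. The difference there was 1.16 points, and 0.644 without WT 1. Beyond 500 bases, 2465 cytosines averaged 62.3%, 62.2% and 61.9% in KO, against 59.0%, 60.5% and 61.1% in WT, in the same library order. All 3 KO libraries were above all 3 WT libraries on the far side, by 1.91 points in the mean, and by 1.31 without WT 1. Among cytosines at 30 to 70% alone, 1625 near ones stood at 49.9% ± 0.946 in KO and 48.2% ± 1.38 in WT, and 938 far ones at 53.2% ± 0.598 in KO and 50.3% ± 1.74 in WT. These differences were 1.69 points near and 2.87 points far, or 0.907 and 1.92 points without WT 1. With tiles shifted by 500 bases, the differences over all cytosines were closer together, at 1.46 points near and 1.77 points far. The difference between near and far was not tested.

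**Figure D2:**
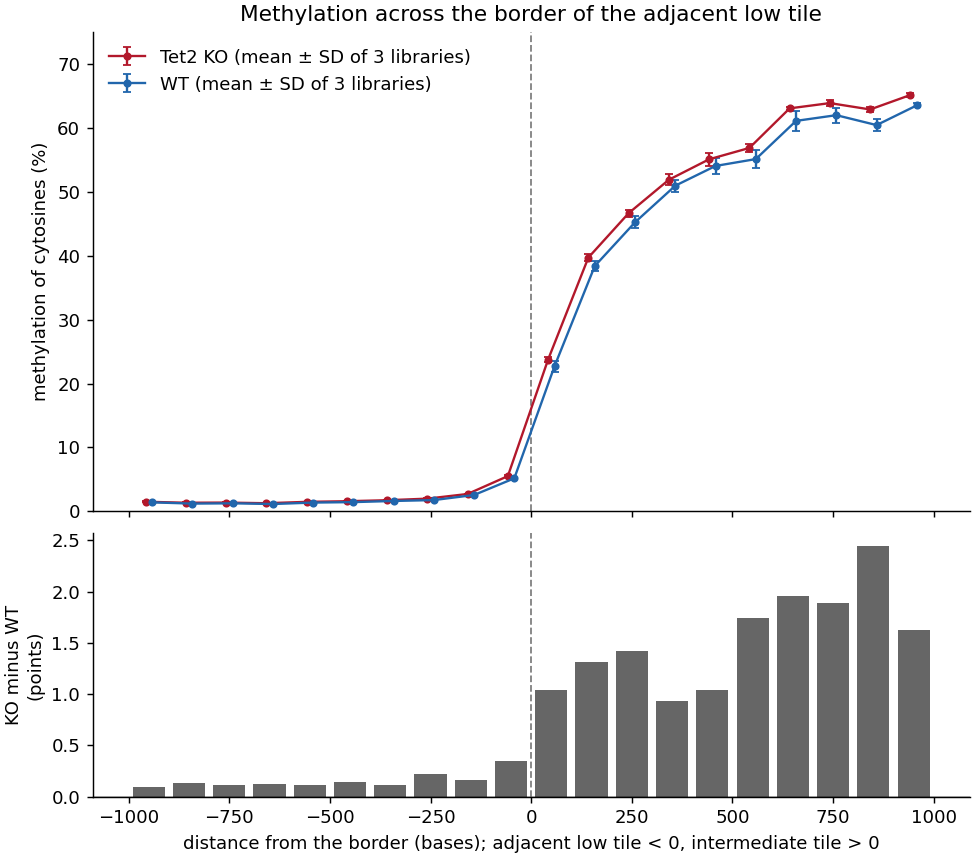
Mean methylation (%) of cytosines by distance from the border (bases) between the adjacent low tile (negative) and the border tile (positive), for Tet2 KO and WT (mean ± SD of 3 libraries), with the KO minus WT difference (points) as bars beneath. Levels climb to 65.2% in KO and 63.6% in WT at 900 to 1000 bases, and every bar is above 0, the smallest ones inside the low tile.

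The adjacent tiles were close to unmethylated in both genotypes. These 929 low tiles held a median of 26 cytosines and had a median level of 1.14%, with quartiles of 0.282% and 3.36%. Their mean was 2.37%, 2.42% and 2.29% in KO 1, KO 2 and KO 3, against 2.10%, 2.11% and 2.13% in WT 1, WT 2 and WT 3. The KO libraries were all above the WT libraries, by 0.249 points. Over all 26255 tiles under 10%, which include these, the means were 1.82% ± 0.0756 in KO and 1.66% ± 0.0114 in WT, a gap of 0.153 points. In the quasi-binomial fit 0 of the 926 adjacent tiles tested were called, and an unadjusted p under 0.05 went with 62 higher and 11 lower. At that p, 1394 higher and 346 lower tiles were found among the 26114 tested tiles under 10%. Over all tiles tested, the shares were 5.74% higher and 1.46% lower. With limma 0 adjacent tiles were called (33 higher and 8 lower unadjusted), with edgeR 0 (39 and 10), and without KO 1 the quasi-binomial fit called 1. Shares over all tiles at that p are not given for limma and edgeR.

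Within border tiles, cytosines covered the whole range of methylation. Of their 6588 cytosines, 14.8% were under 10%, 16.8% at 10 to 30%, 39.6% at 30 to 70%, 17.6% at 70 to 90% and 11.2% at 90% or above, by the mean of all libraries. The median range between the lowest and highest cytosine of a tile was 62.6 points, close to the 61.6 points of the intermediate tiles away. In 184 tiles (19.8%) a cytosine under 10% and one at 90% or above lay together, against 27.8% of the intermediate tiles away, and in 417 (44.98%) all cytosines were between 10% and 90%, against 46.7% away. In 61 tiles (6.58%) that range was under 20 points, against 7.77% away, so cytosines of unlike levels lay together in most tiles of both sets. Cytosines at 30 to 70% averaged 51.1% ± 0.825 in KO and 49.0% ± 1.53 in WT, a gap of 2.11 points that was 1.26 without WT 1. Those at 10 to 30% differed by 1.42 points, those at 70 to 90% by 1.41, those at 90% or above by 0.839 and those under 10% by 0.215. Without WT 1 those at 10 to 30% differed by 0.931 points, those at 70 to 90% by 0.864 and those under 10% by 0.110. In the classes under 10% and at 70 to 90% the libraries of the 2 genotypes overlapped.

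Most CpGs of the border tiles that were measured on both strands had similar levels on them. In 1037 CpGs with both strands measured, the absolute difference between strands had a median of 3.59 points over all libraries, and 109 pairs (10.5%) differed by more than 20 points. In intermediate tiles away, 9017 pairs had a median of 7.53 points, and 37.1% differed by more than 20. The strand difference was not used to choose the tiles, and the contrast between the 2 sets was not tested.

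Of the 927 border tiles, 4 (0.431%) gained methylation in KO and 0 lost it. Calls required an adjusted p under 0.05 together with a pooled difference of at least 10 points, from a quasi-binomial model with Benjamini-Hochberg adjustment over all 108802 tiles tested. Over all tiles, 0.112% were called higher and 0% lower, and of the intermediate tiles away 65 (0.809%) were called higher. At an unadjusted p under 0.05, 100 border tiles (10.8%) were higher and 17 (1.83%) lower, against 5.74% and 1.46% of all tiles and 12.7% and 1.75% of the intermediate tiles away. In 93 border tiles (10.03%) all 3 KO levels lay above all 3 WT levels, against 8.35% of all tiles and 13.5% away, and in 27 (2.91%) all 3 KO levels lay below, against 3.36% of all tiles and 2.95% away. The lower shares of the border tiles were thus near those of all tiles. With limma and with edgeR, 0 of all tiles and so 0 border tiles were called in either direction. An unadjusted p under 0.05 was reached by 14 higher and 5 lower of the 927 border tiles in limma, and by 14 and 2 in edgeR. Shares over all tiles at that p are not given for limma and edgeR, so these counts cannot tell whether there is an excess.

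**Figure D3:**
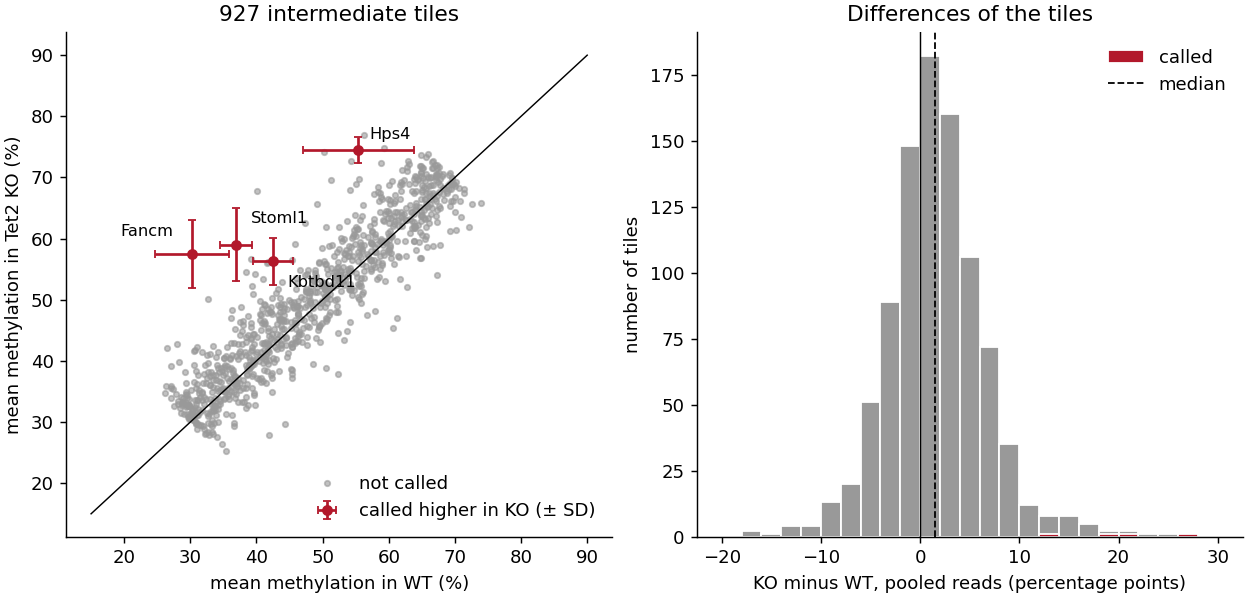
Left, mean methylation (%) in Tet2 KO against WT for the 927 border tiles, with the 4 called tiles named and shown with SD over 3 libraries, and a line of equal levels. Right, number of tiles by pooled KO minus WT difference (percentage points), with the median of 1.53 dashed. Most tiles lie within a few points of the line, and the 4 called tiles lie above it.

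The largest called gain lay in Fancm, which encodes a DNA translocase of the Fanconi anaemia pathway that helps repair crosslinked DNA. The tile (chr12:65077001-65078000, gene 104806) lies in the gene interior, 1898 bases downstream of a listed start. It held 3 cytosines and 354 to 545 reads per library, summed over the cytosines. Its level was 62.7%, 58.2% and 51.6% in KO 1, KO 2 and KO 3, against 24.0%, 32.2% and 34.7% in WT 1, WT 2 and WT 3. The groups did not overlap, and the pooled difference was 27.7 points (SE 4.05, adjusted p = 0.0130, quasi-binomial fit). Its 3 cytosines lie on 1 strand, 3 to 15 bases from the border, so the same reads can cover all 3. At these positions KO averaged 73.1%, 53.3% and 45.8%, against 49.4%, 24.4% and 17.2% in WT, in order of distance from the border. The low tile beside it, with 7 cytosines, stood at 9.81% ± 2.33 in KO and 5.76% ± 1.83 in WT and did not pass the test (adjusted p = 0.615). The call was lost without KO 2 (adjusted p = 0.0579) and without WT 1 (0.0999).

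The tile at Stoml1, which encodes a stomatin-like membrane protein, was called in every fit of 5 libraries. It covers chr9:58254001-58255000 (gene 69106), touches the 1 kb flank of a gene end, and held 8 cytosines and 889 to 1324 reads per library. Its level was 65.1%, 58.9% and 53.1% in KO 1, KO 2 and KO 3, against 34.4%, 39.2% and 37.2% in WT 1, WT 2 and WT 3. The lowest KO library was thus above the highest WT library, and the pooled difference was 21.6 points (SE 2.80, adjusted p = 0.00821, quasi-binomial fit). Across the fits without 1 library the adjusted p was 0.00328 to 0.0322, but the call was lost with the replicate block (adjusted p = 0.764), without moderation, with limma and with edgeR, as were the other 3 calls. At 7 of its 8 cytosines, 770 to 974 bases from the border, no KO library was as low as any WT library. The exception averaged 95.0% in KO and 97.8% in WT, and the others differed by up to 30.9 points. As the tile was called by its difference and its cytosines can share reads, they are not separate evidence for the tile. The low tile beside it stood at 0.135% ± 0.0948 in KO and 0.108% ± 0.0715 in WT.

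Hps4 encodes a subunit of the BLOC-3 complex, which is needed to form lysosome-related organelles. Its border tile (chr5:112368001-112369000, gene 192232) lies in the gene interior with 7 cytosines and 984 to 1704 reads per library. Its level was 76.8%, 72.5% and 74.1% in KO 1, KO 2 and KO 3, against 46.4%, 56.8% and 62.9% in WT 1, WT 2 and WT 3. The WT libraries spread more widely than the KO libraries, with no overlap, and the pooled difference was 18.3 points (SE 2.996, adjusted p = 0.0236, quasi-binomial fit). All 7 cytosines, 897 to 996 bases from the border, were higher in KO, and 5 had no overlap between the genotypes. Neighbouring cytosines can share reads and the tile was called by its difference, so they are not separate evidence for the tile. The low tile beside it stood at 2.28% ± 2.97 in KO and 2.20% ± 1.68 in WT. The call was lost without KO 1 (adjusted p = 0.0787), KO 2 (0.0827), KO 3 (0.0532) or WT 2 (0.05002).

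Kbtbd11 encodes a protein with kelch repeats and a BTB domain. Its border tile (chr8:15029001-15030000, gene 74901) lies in the gene interior with 11 cytosines and 1499 to 2039 reads per library. Its level was 57.2%, 52.0% and 59.7% in KO 1, KO 2 and KO 3, against 41.4%, 40.2% and 46.0% in WT 1, WT 2 and WT 3. The groups did not overlap, and the pooled difference was 13.8 points (SE 2.21, adjusted p = 0.0195, quasi-binomial fit). All 11 cytosines, 129 to 276 bases from the border, were higher in KO, by 2.61 to 16.8 points, and 5 had no overlap. Here too cytosines can share reads and belong to a tile called by its difference, so they add no separate evidence for the tile. The low tile beside it, dense with 109 cytosines, stood at 1.25% ± 0.370 in KO and 0.974% ± 0.147 in WT. The call was lost without KO 1 (adjusted p = 0.0577), KO 3 (0.0653), WT 1 (0.0945) or WT 2 (0.0751), and with each cytosine weighted equally (0.0551).

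**Figure D4:**
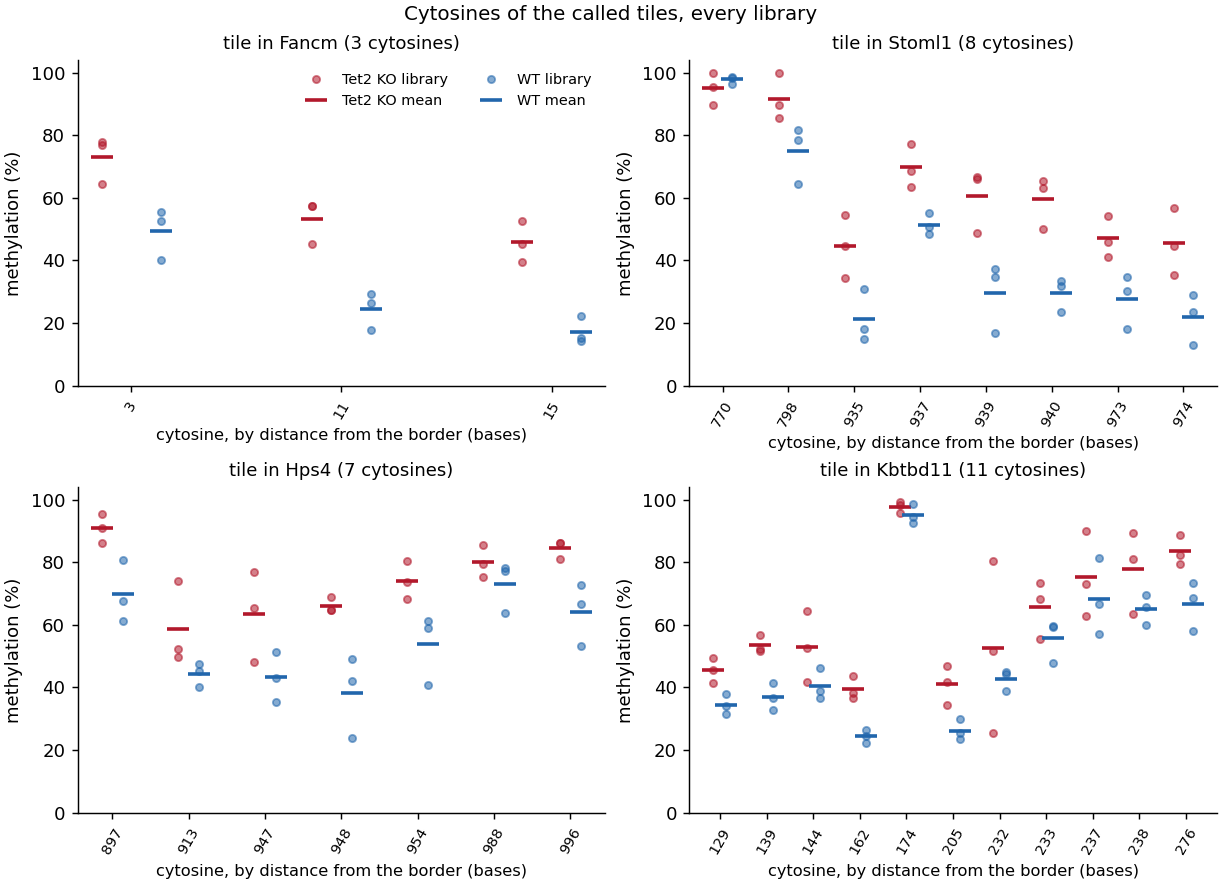
Methylation (%) of each cytosine in the 4 called border tiles, in order of distance from the border (bases), with a point for each Tet2 KO and WT library and a bar at each genotype's mean. KO means are above WT means at every cytosine except the first of the Stoml1 tile, at 95.0% in KO and 97.8% in WT. The tiles were chosen by their difference, and neighbouring cytosines can share reads.

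The border tiles lower in KO with the smallest p-values were not called. The first lies at Ppp1r3f, which encodes a regulatory subunit of protein phosphatase 1, and contains the Flicr window printed above (chrX:7573001-7574000, 18 cytosines). Its level was 57.4%, 53.2% and 59.8% in KO 1, KO 2 and KO 3, against 65.9%, 64.7% and 64.0% in WT 1, WT 2 and WT 3. The KO libraries were all below the WT libraries, with a pooled difference of -8.32 points (SE 2.26, adjusted p = 0.296, quasi-binomial fit). The next 4 were a tile 4.23 kb from Utp11, a ribosome biogenesis gene (-9.05 points), and tiles in Eva1a, a regulator of autophagy (-13.8), in the collagen gene Col5a1 (-14.5) and at Nlrp6, an innate immune sensor (-5.06). In each of these 4 all KO levels lay below all WT levels, and their adjusted p was between 0.463 and 0.562. With each cytosine weighted equally, the difference was -5.20 points at Ppp1r3f and -5.42 in Eva1a. The tiles in Eva1a and Col5a1 held 3 cytosines each and 177 to 364 reads per library.

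The 3 largest differences that were not called were positive. At Tnfrsf13c, which encodes the BAFF receptor that mature B cells need for survival, the tile chr15:82223001-82224000 held 4 cytosines and 299 to 613 reads per library. Its level was 79.7%, 72.6% and 78.7% in KO 1, KO 2 and KO 3, against 44.0%, 59.1% and 65.5% in WT 1, WT 2 and WT 3. The groups did not overlap, but WT spread over more than 20 points, and the pooled difference of 22.4 points (SE 4.73) had an adjusted p of 0.124 in the quasi-binomial fit. The low tile beside it stood at 0.0155% ± 0.0269 in KO and 0.296% ± 0.238 in WT. At Mtg2, a mitochondrial ribosome assembly gene, a tile with 31 to 116 reads per library averaged 67.8% ± 10.3 in KO and 40.1% ± 12.1 in WT (25.6 points, adjusted p = 0.621, quasi-binomial fit, n = 3 each). A tile outside genes, 93.3 kb from Prex1, averaged 74.2% ± 2.68 in KO and 50.1% ± 12.05 in WT (20.7 points, adjusted p = 0.188, quasi-binomial fit, n = 3 each). WT 1 was the lowest library in all 3 of these tiles.

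The 5 border tiles with most cytosines showed small differences. The tile at Cblc, which encodes a ubiquitin ligase of the Cbl family, held 29 cytosines and 3683 to 5164 reads per library, and stood at 40.1% ± 3.58 in KO and 39.4% ± 1.47 in WT. Tiles with 28 cytosines each lay in Arhgef17, a guanine nucleotide exchange factor gene (difference 1.38 points), at Zfp251, a zinc finger gene (1.18), at Nbl1, which encodes an antagonist of bone morphogenetic proteins (-0.646), and at Npr1, a natriuretic peptide receptor gene (-0.101). In all 5 the libraries of the genotypes overlapped, and the adjusted p was between 0.894 and 0.997 in the quasi-binomial fit. The Arhgef17 tile had a measured tile on its other side, at 95.5% ± 4.003 in KO and 94.0% ± 2.34 in WT, so methylation went over 3 kb through low, intermediate and high levels in both genotypes.

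Some border tiles lay at genes of B cell function and development. Of 15 gene lists with 350 matched genes, 11 lists held at least 1 of 26 border tiles, and 0 of the 26 were called by the quasi-binomial fit, limma or edgeR. The germinal centre list held 3, at Irf8, Pou2f2 and Tnfrsf13c, all higher in KO, with a median difference of 8.64 points against 1.53 over all border tiles. Of these, 2 had an unadjusted p under 0.05 in the quasi-binomial fit. At that p, 10.8% of all border tiles and 5.74% of all tiles tested were higher. The list was chosen with earlier results known and held 3 border tiles only, so its median describes these tiles. Developmental transcription factors held 7, all higher in KO, with a median of 1.42 points, close to that of all border tiles, of which 64.2% were higher. Hox genes held 5, of which 4 were higher, with a median of 3.30 points. Imprinted genes held 4, of which 3 were higher. The list of B cell identity genes and the germline, myeloid and NK cell lists held none.

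The listed tiles with the smallest p in each list gave values in both directions. At Igf2, an imprinted growth factor gene, the tile chr7:142657001-142658000 had levels of 55.4%, 47.9% and 41.1% in KO 1, KO 2 and KO 3, against 58.1%, 55.9% and 59.8% in WT 1, WT 2 and WT 3. All KO levels were below all WT levels, with a pooled difference of -9.09 points (adjusted p = 0.716, quasi-binomial fit). Higher values in KO were found at Rela, an NF-kB subunit gene (5.43 points), and at Uhrf1, which encodes a reader of hemimethylated DNA (7.55). Without WT 1 the difference at Uhrf1 was 1.26 points and that at Rela 3.38, and at Rela it was -0.808 with cytosines weighted equally. Lower values were found in Klf4, a Kruppel-like factor gene (-3.55), in Hoxb3 (-4.70, and -2.14 without KO 3), in Gata3, a T cell transcription factor gene (-4.89), at Epor, the erythropoietin receptor gene (-1.74), in Cd72, an inhibitory coreceptor gene of B cells (-1.35), and in Sdc1, which encodes the plasma cell antigen CD138 (-0.395). Their adjusted p-values in the quasi-binomial fit were between 0.705 and 0.995, so neither direction passed the test.

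Border tiles lay close to genes. Of the 927, 457 (49.3%) were within 1 kb of an end of a protein-coding gene, 330 (35.6%) in gene interiors and 140 (15.1%) outside genes, while 9.16%, 45.7% and 45.2% of intermediate tiles away fell in these 3 places. Of the 910 border tiles on chromosomes with listed starts, 511 (56.2%) lay within 2 kb of a start, 294 downstream and 217 upstream, against 11.1% of the tiles away. Tiles at 70% or above with an adjacent low tile had a like share, 57.6% of 1451. The start itself was more often in the low neighbour. A start fell inside 63 border tiles (6.92%) and inside 39.7% of the adjacent low tiles. The difference between genotypes was 1.37 points at gene ends (49.9% ± 0.639 in KO, 48.6% ± 0.882 in WT), 2.14 in interiors (50.04% ± 0.758 in KO, 47.9% ± 0.9995 in WT) and 1.62 outside genes (50.8% ± 0.415 in KO, 49.2% ± 1.32 in WT). Without WT 1 these were 0.857, 1.59 and 0.969 points. Of the 4 called tiles, 1 was at a gene end and 3 in interiors.

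**Figure D5:**
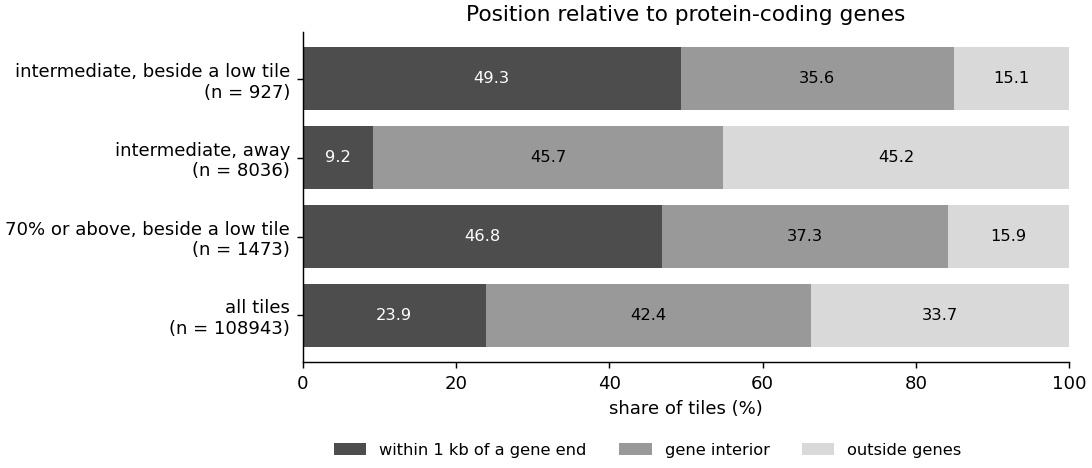
Share of tiles (%) within 1 kb of an end of a protein-coding gene, in gene interiors and outside genes, for border tiles, intermediate tiles away, tiles at 70% or above beside a low tile, and all tiles. Border tiles and the more methylated tiles beside low tiles have like shares at gene ends, 49.3% and 46.8%, against 9.16% of the intermediate tiles away.

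In their sequence, promoter windows that overlap border tiles stood between those that overlap adjacent low tiles and all listed promoters. Some of these windows lie mostly outside the border tile. A window that crosses into the low tile, as at Fgfrl1, overlaps both, and the part of such windows in the contrast was not tested. The 127 windows that overlap border tiles had a median of 10 CpGs and a GC content of 57.3%. The medians were 23 CpGs and 64.7% in the 520 windows that overlap adjacent low tiles, and 7 CpGs and 52.7% in all 32851 windows. The ratio of observed to expected CpGs had medians of 0.459, 0.742 and 0.384 in the same order. The restriction motif CCGG, which reads the same on both strands, was present in 78.7%, 90.2% and 52.8% of them. The GC box GGGCGG, searched on both strands, was present in 47.2%, 72.3% and 35.7%. The Flicr and Gpr50 windows printed above hold 2 CCGG motifs each, and those of Emid1 and Stpg1 hold 3. A match of letters is a description of the window and not of binding, and CCGG is favoured by the assay.

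Tiles on either side of each limit show how narrowly some were kept or left out. The border tile closest to the lower limit, in Igdcc4, had a level of 30.01%, and a tile in Tmem198 at 29.99% was left out. At the upper limit, a tile 0.870 kb from Rpl35 at 69.97% was kept, and one in Cap2 at 70.03% was left out. For the neighbour, a tile in Echdc3 whose adjacent tile stood at 9.94% was kept, and one near Evpl with an adjacent tile at 10.06% was left out. On cytosine number, 19 tiles that met the other limits held 30 to 77 cytosines and were left out.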

How the data were processed

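ERRBS was made from genomic DNA of splenic naive B cells, 3 Tet2 KO and 3 WT libraries. The series' design text speaks of germinal centre B cells, while its title and all sample labels name naive B cells, which were followed. The authors processed reads with Bismark on GRCm38, per the submitters' processing notes, and the sources used here give no version or filters. Coverage was deposited as an unnormalized read count for each CpG cytosine and strand, and the deposited C and T values are percent of that coverage, per the file headers. No count was under 10. C and T counts were recovered as percent times coverage, and 100% were whole.

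Counts were summed per 1 kb tile over cytosines measured in all 6 libraries. KO and WT were compared with a quasi-binomial model whose overdispersion was moderated by limma 3.58.1 in R 4.3.3 and held at 1 or above. It used an F test and Benjamini-Hochberg adjustment over 108802 tiles. The fit was also run on simulated counts whose overdispersion was shuffled over all tiles. That run cannot show how the fit behaves at the overdispersion of intermediate tiles. Alternatives were a coverage minimum of 20, a limit at the 99.9th percentile of coverage, tiles shifted by 500 bases, levels of 20% to under 80%, neighbours under 5%, cytosines weighted equally, chromosomes X and Y left out, adjusted p alone, each library left out, a replicate block, no moderation, limma on log2((C + 2)/(T + 2)) and edgeR 4.0.16. The files hold no molecular identifiers, so read numbers may overstate precision and errors come from the libraries.

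Gene spans (21887 protein-coding genes) and promoter windows came from RefSeq, GRCm38.p6. All 224866 cytosines measured in those windows fell on a CpG base, so the coordinates match. Exon, intron and CpG island context and genome sequence were not used here. Named tiles were the called ones, the 5 of smallest p among those lower in KO, the 3 largest differences not called, the 5 with most cytosines, the tile of smallest p per gene list, and those at the limits. A tile that these choices would name is not reported here. A tile is named by the gene it lies in, the nearest one within 1 kb, or the nearest one with its distance. The border tiles and the gene lists were chosen with earlier results of these data known.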

Additional observations from a re-analysis of the deposited data

How the results depend on the processing

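The number of border tiles called higher in KO was 3 to 5 with other tiles, levels, neighbours, coverage limits, weighting or chromosomes, against 4, and 0 were called lower under every alternative. Called tiles numbered 0 with the replicate block, without moderation, with limma and with edgeR, as they did over all tiles. An unadjusted p under 0.05 was reached by 73 higher and 17 lower border tiles with the block, and by 45 and 10 without moderation. Shares over all tiles at that p are not given for these fits. Leaving out 1 library gave 2 to 4 called tiles: 2 without KO 1, KO 2, KO 3, WT 1 or WT 2, and 4 without WT 3. The replicate numbers were not shown to pair the libraries: same-numbered libraries deviated with correlations of 0.0279, -0.0175 and -0.0105 over all tiles, and only KO 1 correlated best with its own number.

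The mean difference of border tiles was 1.13 to 2.06 points without 1 library. That of the adjacent low tiles was 0.249 points, and 0.176 with tiles shifted by 500 bases and 0.147 with neighbours under 5%. The share of border tiles with all KO above all WT levels was 10.03%, and 12.8% with cytosines weighted equally. The causes were not tested.

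With cytosines weighted equally, 5 named differences that did not pass the test turned round: Zfp251 to -0.229, Nbl1 to 0.150, Sdc1 to 2.47, Cd72 to 0.886 and Rela to -0.808 points. Leaving out 1 library gave ranges that cross 0 at Cblc (-1.25 to 2.27), Zfp251 (-1.11 to 3.52), Nbl1 (-2.74 to 0.304), Npr1 (-1.67 to 2.65), Sdc1 (-3.66 to 3.83), Cd72 (-8.02 to 4.44), Gata3 (-8.59 to 0.790) and Epor (-4.83 to 2.65). Other differences that did not pass the test moved by over 1.5 times without turning: Arhgef17 to 0.665 without WT 1 and 0.850 with equal weighting, Klf4 to -2.35 without KO 3 and -2.03 with equal weighting, Uhrf1 to 12.3 without WT 2, Rela to 9.17 without KO 2, and Gata3 to -2.95 with a coverage minimum of 20. With 3 cytosines and few reads, as at Mtg2, a level rests on few fragments, and 3 libraries per genotype limit the tests.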

Other observations

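Of the 927 border tiles, 763 had no measured tile on their other side, and 14 had low tiles on both sides. Where the other side was measured and not low, it stood at 10 to 30% in 17, at 30 to 70% in 25, at 70 to 90% in 46 and at 90% or above in 62 tiles. The 62 tiles between low and fully methylated DNA averaged 51.5% ± 0.361 in KO and 49.3% ± 0.822 in WT (SD, n = 3 each).

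The 19 tiles left out for holding 30 or more cytosines averaged 46.2% ± 1.296 in KO and 45.5% ± 0.514 in WT.

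By chromosome, the mean difference of the border tiles was positive on all 20 chromosomes that held any, from 0.563 points on chromosome 4 (74 tiles) to 3.04 on chromosome 1 (32 tiles). Without WT 1, that on chromosome 6 (43 tiles) was -0.0688 points instead of 0.589. Chromosome X held 16 border tiles, at 43.9% ± 0.501 in KO and 42.9% ± 0.602 in WT.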
